A study of Rattus norvegicus with 10 samples.

Results

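Oligodendrocyte lineage genes were followed through 24 h of activity blockade in cultured rat hippocampus. The set was a list of 35 gene names, 9 of the precursor stage, 7 of the differentiating stage and 19 of the myelinating stage. Of these, 31 were among the 14354 genes of the deposited table, and all 31 passed the filter on low counts that left 13088 genes for testing. Zfp488, Gjc3, Lhfpl3 and Trf were not listed under those names. Trf is a synonym of Tf, the rat transferrin gene, in the RefSeq table, which also gives it for Trh. Tf was listed, was not counted as a member under the matching by name, and is described beside the myelinating stage. The listed genes were 8 precursor, 6 differentiating and 17 myelinating members.

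Neurons and glia of the hippocampus, taken from Sprague-Dawley rats at embryonic day 18, were grown together in neurobasal medium with B27. From 19 days in vitro, 5 samples received vehicle and 5 received 1 µM tetrodotoxin (TTX), which blocks voltage-gated sodium channels and so action potentials. RNA was taken at 20 days in vitro and sequenced in bulk, so that each value is an average over all cell types of the culture. The labels do not say whether the 5 samples of a group came from separate preparations, and the p-values measure the spread between these samples. Total counts ran from 52254261 to 77757538 with vehicle and from 58785925 to 84921962 with TTX.

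Oligodendrocytes arise from precursor cells that divide under platelet-derived growth factor, which acts through the receptor encoded by Pdgfra. Precursors carry the proteoglycan NG2 and the transcription factors Olig1, Olig2, Sox10 and Nkx2-2. On commitment they lose Pdgfra and pass through a premyelinating phase marked by the receptor Gpr17 and by Bcas1. They then make the lipids and proteins of myelin, such as Mbp, Mag and Mog. Neuronal activity is known in rodents to act on the division and differentiation of precursors, and the comparison shows the lineage transcripts when action potentials were blocked.

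The members that passed a test against a 1.5-fold change, and Pdgfra, which fell, are introduced here by the 250 bases before their transcription start, which show the regulatory sequence next to each gene. The stretches are from RefSeq on rat GRCr8, which is not the authors' build rn6, and are written 5′ to 3′ on the gene's strand. No promoter entry was used for Olig1. Capitals mark matches to SOX motifs (ACAAAG or ACAATG) or to E-box motifs of the kind bound by bHLH factors (CAGCTG or CAGATG), searched on both strands.
Olig2 promoter, GRCr8 chr11:43961335-43961584, plus strand: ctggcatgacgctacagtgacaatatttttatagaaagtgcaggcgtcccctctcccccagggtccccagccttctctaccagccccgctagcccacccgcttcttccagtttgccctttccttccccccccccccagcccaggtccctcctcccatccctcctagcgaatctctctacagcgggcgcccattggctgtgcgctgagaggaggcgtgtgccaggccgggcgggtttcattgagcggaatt
Nkx2-2 promoter, GRCr8 chr3:155075623-155075872, minus strand: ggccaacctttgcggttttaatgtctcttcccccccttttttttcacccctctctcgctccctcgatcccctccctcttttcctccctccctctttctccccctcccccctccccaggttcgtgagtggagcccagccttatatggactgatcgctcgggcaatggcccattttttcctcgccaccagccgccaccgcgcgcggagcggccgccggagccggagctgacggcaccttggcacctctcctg
Pdgfra promoter, GRCr8 chr14:33408517-33408766, minus strand: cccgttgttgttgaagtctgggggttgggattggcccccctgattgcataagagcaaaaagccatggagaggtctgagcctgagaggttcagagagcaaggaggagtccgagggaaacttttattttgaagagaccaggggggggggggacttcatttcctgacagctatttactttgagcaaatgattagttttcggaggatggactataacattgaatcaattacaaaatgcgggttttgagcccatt
Gpr17 promoter, GRCr8 chr18:23857382-23857631, minus strand: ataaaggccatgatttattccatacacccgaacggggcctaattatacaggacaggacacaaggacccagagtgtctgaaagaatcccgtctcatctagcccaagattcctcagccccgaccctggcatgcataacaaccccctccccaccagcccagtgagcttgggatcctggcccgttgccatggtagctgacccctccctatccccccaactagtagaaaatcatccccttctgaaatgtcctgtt
Tns3 promoter, GRCr8 chr14:87619387-87619636, minus strand: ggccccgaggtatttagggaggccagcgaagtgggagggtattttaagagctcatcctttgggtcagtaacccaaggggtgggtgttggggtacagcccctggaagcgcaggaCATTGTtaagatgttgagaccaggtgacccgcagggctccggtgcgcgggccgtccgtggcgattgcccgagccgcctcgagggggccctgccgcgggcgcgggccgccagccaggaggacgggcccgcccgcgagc
Aspa promoter, GRCr8 chr10:58439038-58439287, minus strand: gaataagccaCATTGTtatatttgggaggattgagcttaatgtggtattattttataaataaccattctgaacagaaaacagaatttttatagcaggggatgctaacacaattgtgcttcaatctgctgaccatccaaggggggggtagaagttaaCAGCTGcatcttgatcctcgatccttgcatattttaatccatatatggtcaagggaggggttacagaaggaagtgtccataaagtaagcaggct
Only the last 2 of these promoters held a match. The Tns3 stretch had 1 SOX match (ACAATG on the reverse strand), beginning 137 bases before the start. Aspa had the same SOX motif on the reverse strand at 240 bases and the E-box CAGCTG at 94 bases before the start. Over the 22 member genes with an entry, 9 of 23 promoters held a SOX match and 5 of 23 an E-box match. Of all 33469 promoters of that length, 25.3% held a SOX match and 24.3% an E-box match, and a match here is a run of letters, not a binding site.

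Most of the lineage was higher with TTX. By the quasi-likelihood F test of edgeR, with p-values adjusted over all tested genes after Benjamini and Hochberg, 22 of 31 members rose (71.0%), 1 fell and 8 did not pass. Over all tested genes 35.4% were called higher and 35.0% lower. The median log2 fold change was 0.42 over the members and 0.01 over all tested genes. Past a 1.5-fold change (glmTreat), 6 members were higher, namely Olig1, Olig2, Nkx2-2, Gpr17, Tns3 and Aspa, against 5.35% of all genes. None was lower past 1.5-fold by glmTreat at an adjusted p under 0.05, against 8.44% of all genes. None was lower at an unadjusted p under 0.05 either, for which the share of all genes was not counted. The vehicle and TTX ranges did not overlap in 16 members that were higher and in 1 that was lower, against 28.2% and 29.1% of all genes. Summed over the members, the vehicle libraries held 1936 to 2325 CPM (counts relative to the TMM-scaled library size) and the TTX libraries 2897 to 3168. In bulk RNA, more cells of a type and more RNA per cell cannot be told apart. The authors' deposited table made the same call for all 31 members.

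**Figure D1:**
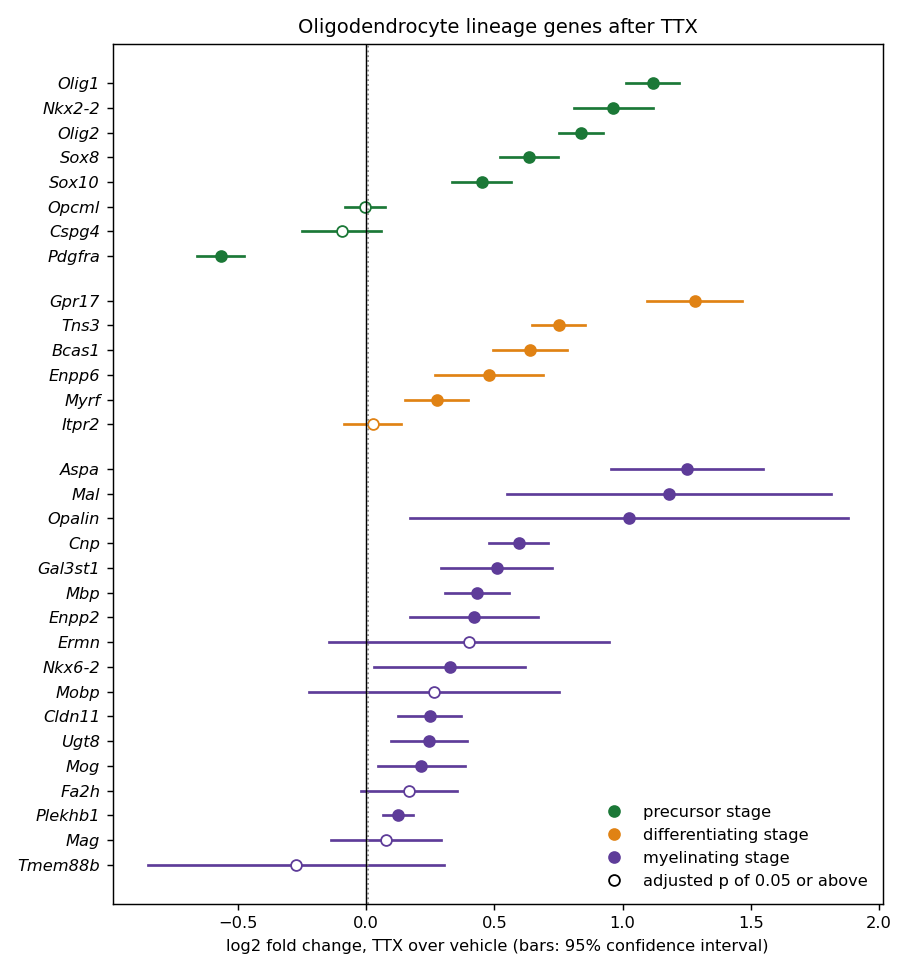
Log2 fold change of each listed member (TTX over vehicle) with its 95% confidence interval, grouped by stage; filled points passed the adjusted p of 0.05, open points did not, and the dotted line is the median of all tested genes. Of 31 members, 22 lie to the right of 0 and passed, and Pdgfra passed on the left.

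Within the precursor stage the transcription factors rose and the surface proteins did not. Over all tested genes 35.4% were called higher and 35.0% lower. All 5 factors (Olig1, Olig2, Sox10, Sox8 and Nkx2-2) rose, with a median log2 fold change of 0.84. Of the 3 surface proteins (Pdgfra, Cspg4 and Opcml), 1 fell and 2 did not pass, with a median of -0.09. The division into factors and surface proteins was made after the values were seen, and the difference between these groups was not tested as such. The summed factors had 352 to 426 CPM with vehicle and 707 to 746 with TTX, whereas the summed surface proteins had 386 to 415 and 337 to 369.

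Olig1, a bHLH factor of precursors and oligodendrocytes, had 158, 191, 169.7, 162 and 185 CPM in vehicle replicates 1 to 5 and 359, 367, 377, 386 and 389 in TTX replicates 1 to 5. Every TTX library was far above every vehicle library. The mean rose from 173 ± 14.4 to 376 ± 12.8 CPM (SD, n = 5), a log2 fold change of 1.12 ± 0.0484 (SE; 2.17-fold; adjusted p = 5.02e-11 by edgeR). Its paralog Olig2, which specifies the lineage, had 82.8, 93.4, 87.2, 85.6 and 96.6 CPM with vehicle and 157, 159, 152, 164 and 164 with TTX. These groups were also fully separated, and the rise was 0.84 ± 0.0399 on the log2 scale (1.79-fold, adjusted p = 1.44e-10). Nkx2-2, a homeodomain factor that promotes differentiation, had 12.3, 16.2, 14.6, 12.6 and 14.4 CPM with vehicle and 28.5, 27.3, 24.5, 28.0 and 28.6 with TTX. It nearly doubled, with a log2 fold change of 0.96 ± 0.0715 (1.95-fold, adjusted p = 1.81e-08). The SoxE factors had smaller folds. Sox8 rose 1.55-fold (46.4 ± 4.16 to 72.0 ± 2.21 CPM, adjusted p = 5.87e-08). Sox10, which acts with Olig2 and later with Myrf on myelin genes, rose 1.37-fold (65.4 ± 6.03 to 89.3 ± 3.95 CPM, adjusted p = 3.35e-06).

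Pdgfra, the receptor for the mitogen PDGF-A, had 152, 139.8, 135, 149 and 142 CPM with vehicle and 96.1, 99.2, 106, 92.8 and 90.6 with TTX. All TTX libraries were below all vehicle libraries. The log2 fold change was -0.57 ± 0.0426 (144 ± 7.09 to 96.8 ± 5.84 CPM, 1.48-fold lower, adjusted p = 2.08e-08). Cspg4, which encodes NG2, had 35.3 ± 4.13 CPM with vehicle and 33.0 ± 1.93 with TTX, and its log2 fold change of -0.09 had a 95% confidence interval of -0.25 to 0.06 (adjusted p = 0.254). Its lowest vehicle value was 28.6 CPM in replicate 4, and without that library Cspg4 was lower with TTX (-0.16, adjusted p = 0.0131). Opcml, an adhesion protein that neurons also make, had 226 ± 9.34 and 225 ± 10.6 CPM, and the interval of its log2 fold change was -0.08 to 0.07 (adjusted p = 0.944).

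**Figure D2:**
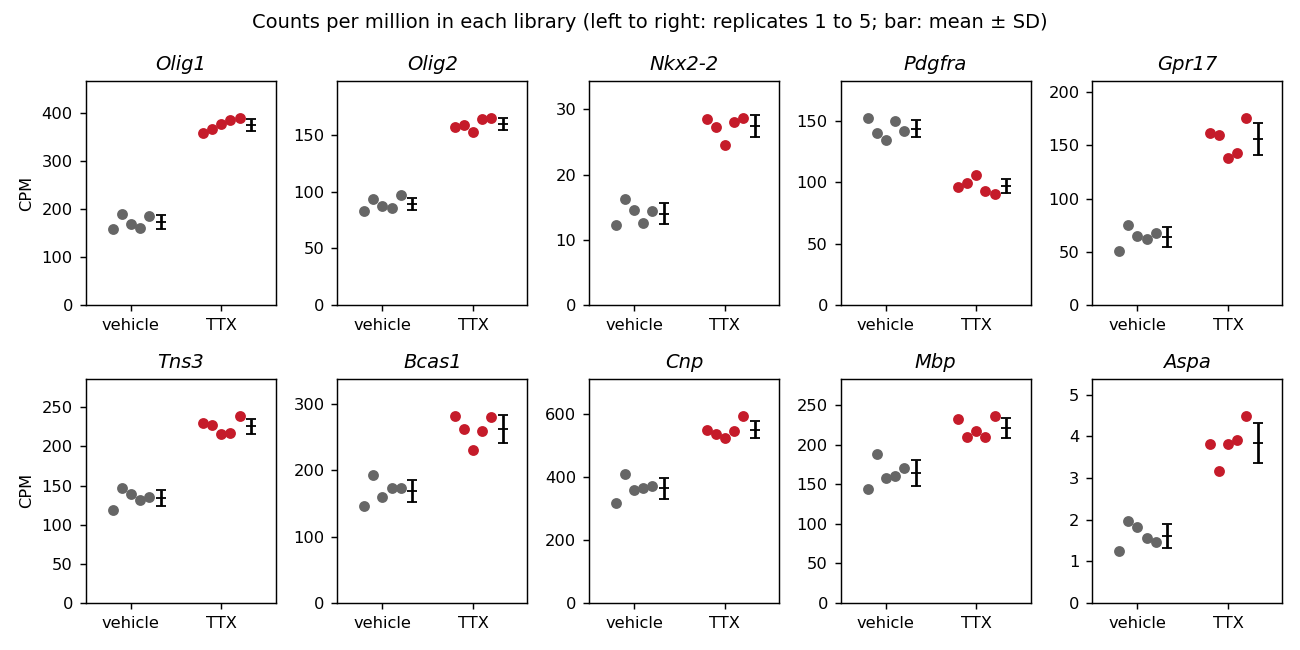
CPM of 10 members in each library (points from left to right are replicates 1 to 5; bars are mean ± SD, n = 5 per group). TTX values lie above all vehicle values in 9 of these genes and below them in Pdgfra.

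Pdgfra and Cspg4 are also made by pericytes and fibroblasts. Of 10 tested markers of those cells 5 fell (50%, against 35.0% of all tested genes) and 5 did not pass, with a median of -0.48. Their summed level was 86.9 to 105 CPM with vehicle and 57.3 to 78.1 with TTX. Dcn, a fibroblast proteoglycan, had 16.8 ± 1.49 and 6.17 ± 0.484 CPM, and Pdgfrb, a pericyte receptor, 12.8 ± 1.13 and 7.69 ± 0.752. The pericyte markers Rgs5 and Kcnj8 were near 0 (0.0232 and 0.0405 CPM with vehicle). The part of these cells in the fall of Pdgfra was not tested.

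Of the differentiating stage, 5 of 6 members rose and 1 did not pass, with a median log2 fold change of 0.56. Over all tested genes 35.4% were called higher. Their summed level was 426 to 537 CPM with vehicle and 707 to 828 with TTX. Gpr17, a G-protein coupled receptor of committed and premyelinating cells, had the largest log2 fold change of all members. Its values were 50.5, 75.0, 65.0, 62.2 and 67.4 CPM with vehicle and 161, 159.9, 139, 143 and 175 with TTX. The lowest TTX library was well above the highest vehicle library, and the log2 fold change was 1.28 ± 0.0869 (2.43-fold, adjusted p = 6.95e-09). Tns3, a tensin of focal adhesions that marks cells beginning to differentiate, had 119, 147, 139, 132 and 135 CPM with vehicle and 230.1, 227, 216, 217 and 239 with TTX. It rose 1.68-fold, a log2 fold change of 0.75 ± 0.0473 (adjusted p = 3.08e-09). Bcas1, a protein of early myelinating cells, had 146, 193, 159.9, 173 and 173 CPM with vehicle and 282, 262, 230.3, 259.9 and 281 with TTX. The groups were separate, and the log2 fold change was 0.64 ± 0.0671 (1.56-fold, adjusted p = 8.19e-07).

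Lower in abundance, Enpp6, a choline phosphodiesterase of newly formed oligodendrocytes, rose from 5.69 ± 0.938 to 7.95 ± 0.307 CPM (1.39-fold, adjusted p = 0.000533). Myrf, the factor that switches on myelin genes, rose from 55.9 ± 4.27 to 67.6 ± 4.83 CPM, which is 1.21-fold (adjusted p = 0.000563). Its groups overlapped, since the highest vehicle value of 61.2 was above the TTX value of 60.4 in replicate 3. Itpr2, a calcium channel of the endoplasmic reticulum that other cells also make, had 54.0 ± 1.82 and 54.9 ± 4.80 CPM, and its log2 fold change had an interval of -0.09 to 0.14 (adjusted p = 0.680).

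Of the myelinating stage, 12 of 17 members rose and 5 did not pass, with a median log2 fold change of 0.33. Over all tested genes 35.4% were called higher. The summed level was 746 to 961 CPM with vehicle and 1113 to 1239 with TTX. The groups did not overlap in 7 members, all higher with TTX, against 28.2% of all genes higher without overlap. Transferrin (Tf), an iron carrier that mature oligodendrocytes and the choroid plexus make, fell from 1604 ± 122 to 1299.8 ± 94.9 CPM (log2 fold change -0.30, adjusted p = 0.000144). With Tf counted as the member Trf, the summed level of the stage was 2296 to 2626 CPM with vehicle and 2367 to 2588 with TTX, so that the groups overlapped, and the sum over all members was 3486 to 3940 and 4185 to 4414. The counts over the lineage were then 22 higher, 2 lower and 8 not passing of 32. Of the stage, only Aspa passed the 1.5-fold test, against 3 precursor and 2 differentiating members. The difference in size of change between the stages was not tested.

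Among proteins of the myelin sheath, Cnp, an enzyme of the cytoplasmic channels of myelin, had 317, 408, 359, 364 and 372 CPM with vehicle and 551, 537, 523, 545 and 594 with TTX. It rose 1.51-fold, with a log2 fold change of 0.60 ± 0.0537 (adjusted p = 1.58e-07). Mbp, the protein that compacts the sheath, had 144, 188, 158, 161 and 170.1 CPM with vehicle and 233, 210.3, 217, 209.9 and 236 with TTX. All TTX libraries were above all vehicle libraries, and the log2 fold change was 0.43 ± 0.0582 (1.35-fold, adjusted p = 1.13e-05). Cldn11, the claudin of the tight junctions between myelin layers, rose 1.19-fold (51.1 ± 5.41 to 60.7 ± 1.47 CPM, adjusted p = 0.00155). Plekhb1 rose 1.09-fold, with little spread (111 ± 3.28 to 121 ± 3.30 CPM, adjusted p = 0.000903).

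The late surface proteins of the outer and innermost myelin layers had small differences. Mog rose 1.16-fold (8.27 ± 0.965 to 9.61 ± 0.463 CPM, adjusted p = 0.0248), a call lost without vehicle replicate 3, vehicle replicate 4 or TTX replicate 4 (adjusted p = 0.0712, 0.0587 and 0.0535). Mag had 13.7 ± 1.93 and 14.5 ± 1.84 CPM, and the interval of its log2 fold change was -0.14 to 0.29 (adjusted p = 0.493). Mal, a proteolipid of myelin, had 0.230, 0.393, 0.469, 0.659 and 1.05 CPM with vehicle and 1.38, 1.49, 1.07, 1.19 and 1.36 with TTX. It rose 2.27-fold (adjusted p = 0.00246), the TTX library in replicate 3 lying just above vehicle replicate 5.

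Other late members were scarce. With vehicle, 5 of 17 myelinating members were below 1 FPKM, namely Ermn, Mal, Mobp, Tmem88b and Opalin, and no precursor or differentiating member was. Opalin, a membrane protein of mature oligodendrocytes, passed the filter on low counts only through the TTX libraries. It had 0.191, 0.164, 0.337, 0.138 and 0.235 CPM with vehicle and 0.799, 0.539, 0.203, 0.353 and 0.272 with TTX, so that the groups overlapped. Opalin was called higher (log2 fold change 1.03 ± 0.397, adjusted p = 0.0323), and the call was lost without vehicle replicate 1, 2 or 4 or without TTX replicate 1 or 2 (adjusted p from 0.0608 to 0.137). Without Opalin, 21 of 30 members rose. Ermn (0.680 and 0.907 CPM), Mobp (0.756 and 0.907) and Tmem88b (0.512 and 0.415) did not pass, and the intervals of their log2 fold changes were wide (-0.14 to 0.95, -0.22 to 0.75 and -0.85 to 0.30).

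Enzymes of myelin lipids and of oligodendrocyte metabolism differed among themselves. Ugt8, which makes galactosylceramide, rose 1.19-fold (41.9 ± 4.24 to 49.7 ± 4.01 CPM, adjusted p = 0.00547). Gal3st1, which sulfates it to sulfatide, rose 1.42-fold (6.23 ± 0.673 to 8.89 ± 1.22 CPM, adjusted p = 0.000391). Fa2h, which hydroxylates the fatty acids of these lipids, had 15.9 ± 1.66 and 17.9 ± 2.24 CPM and did not pass (adjusted p = 0.0996), although it did without vehicle replicate 2 (adjusted p = 0.0420). Aspa, which splits N-acetylaspartate into acetate for lipid synthesis, had 1.24, 1.96, 1.82, 1.55 and 1.47 CPM with vehicle and 3.82, 3.16, 3.81, 3.92 and 4.48 with TTX. The 5 TTX libraries were all above the vehicle libraries, and the log2 fold change was 1.25 ± 0.138 (2.38-fold, adjusted p = 1.38e-06).

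Nkx6-2, a homeodomain factor of maturing oligodendrocytes, rose 1.25-fold (2.21 ± 0.350 to 2.78 ± 0.375 CPM, adjusted p = 0.0462). That call was lost on leaving out any of 8 libraries (all but vehicle replicate 2 and TTX replicate 3), with adjusted p from 0.0582 to 0.114. Enpp2, autotaxin, rose from 66.3 ± 12.6 to 88.7 ± 12.4 CPM (1.34-fold, adjusted p = 0.00504), and its groups overlapped. The choroid plexus makes Enpp2 too. Of 12 ependymal and choroid plexus markers 8 rose (66.7%, against 35.4% of all tested genes), 1 fell and 3 did not pass. Their summed level was 207 to 298 CPM with vehicle and 287 to 381 with TTX, and the defining choroid plexus gene Ttr had 114 ± 24.3 and 167 ± 34.5 CPM. The part of those cells in the rise of Enpp2 was not tested.

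Levels can be compared between genes only per length, for which the deposited FPKM were used. With vehicle, Cnp was the most abundant member (154 ± 13.7 FPKM), above Opcml (93.9 ± 3.55), Mbp (82.4 ± 7.56) and Olig1 (78.5 ± 6.35), of which Mbp overlapped with each of the other two. Bcas1 (61.4 ± 6.19), Gpr17 (61.0 ± 8.44) and Plekhb1 (56.9) followed and overlapped with each other. With TTX the order was Cnp (234 ± 10.5 FPKM), Olig1 (172 ± 5.85), Gpr17 (149.7 ± 13.9) and Mbp (111 ± 5.69), and here Olig1 and Gpr17 overlapped, which they did not with vehicle. Olig1 and Gpr17, below or within the range of Mbp with vehicle, were thus above Mbp in all 5 TTX libraries. Pdgfra had 21.4 ± 1.06 FPKM with vehicle and 14.6 ± 0.930 with TTX.

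**Figure D3:**
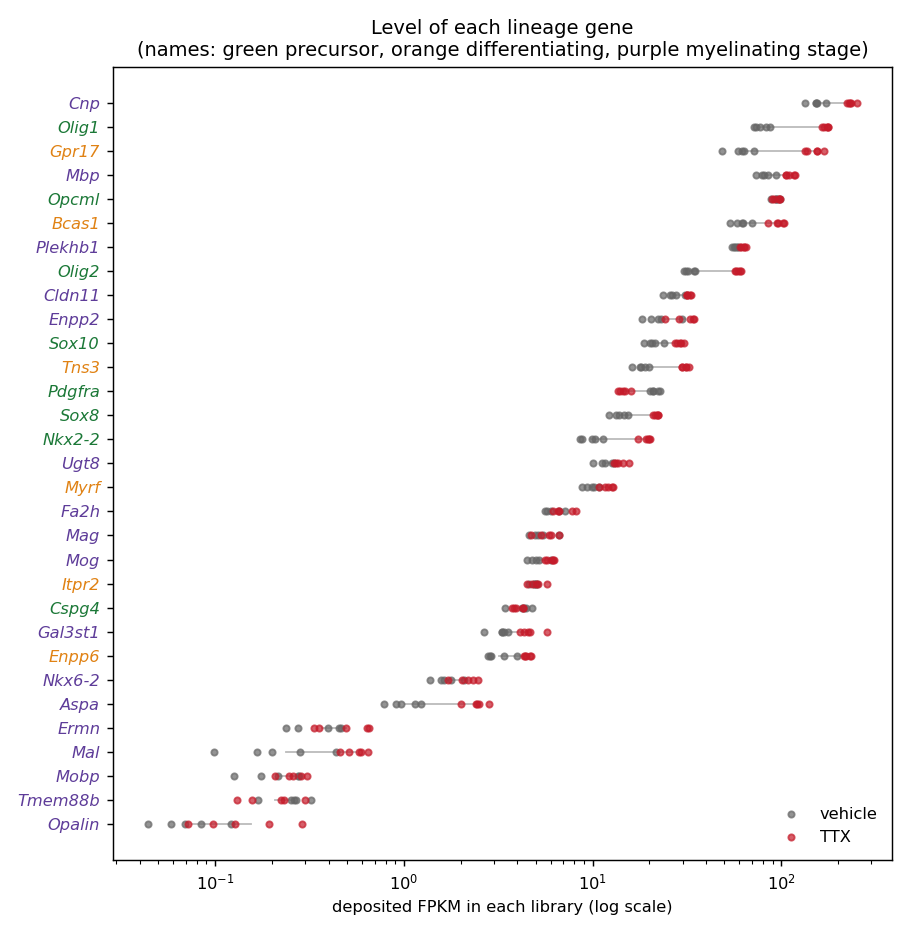
Deposited FPKM of each listed member in each library on a log scale, ordered by the mean over both groups. Cnp is highest in both groups, Gpr17 moves from 61.0 to 149.7 FPKM on average, and 5 myelinating members lie below 1 FPKM with vehicle.

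Ratios between members within a library do not depend on the scaling of that library. The FPKM ratio of Gpr17 to Pdgfra was 2.12 to 3.43 with vehicle and 8.39 to 12.4 with TTX. That of Olig2 to Pdgfra was 1.34 to 1.67 with vehicle and 3.55 to 4.46 with TTX, and that of Mbp to Pdgfra 3.23 to 4.49 and 6.88 to 8.67. Relative to Pdgfra, therefore, a gene of each of the 3 stages was higher in every TTX library. The ratio of Mbp to Gpr17 went the other way, being 1.27 to 1.52 with vehicle and 0.689 to 0.820 with TTX. That of Cnp to Olig2 was 4.40 to 5.03 with vehicle and 3.82 to 4.15 with TTX. The myelin transcripts Mbp and Cnp thus rose by less than the earlier transcripts Gpr17 and Olig2. These pairs were chosen after the values were seen, and the ratios are descriptions with no test.

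Members varied together between libraries of the same group. Among the 5 vehicle libraries, replicate 1 had the lowest CPM in 20 of 31 members, against 23.4% of all genes, and replicate 2 the highest in 20, against 17.9%. With TTX, replicate 3 was lowest in 14 members (19.7% of all genes) and replicate 5 highest in 17 (21.9%). Pdgfra ran against this order, with its highest vehicle value in replicate 1 and, with TTX, its highest in replicate 3 and its lowest in replicate 5. The median coefficient of variation over the members was 10.6% with vehicle and 7.15% with TTX, and over all tested genes 5.61% and 5.22%. For the 26 members with a mean of at least 1 CPM it was 10.2% with vehicle and 5.94% with TTX, the latter near the value of all tested genes. Averaged over the members of a stage, the log2 level relative to the vehicle mean was -0.09 to 0.10 in vehicle libraries and 0.39 to 0.44 in TTX libraries for precursor members. The differentiating members had -0.16 to 0.14 and 0.47 to 0.66, and the myelinating members -0.20 to 0.11 and 0.37 to 0.50.

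**Figure D4:**
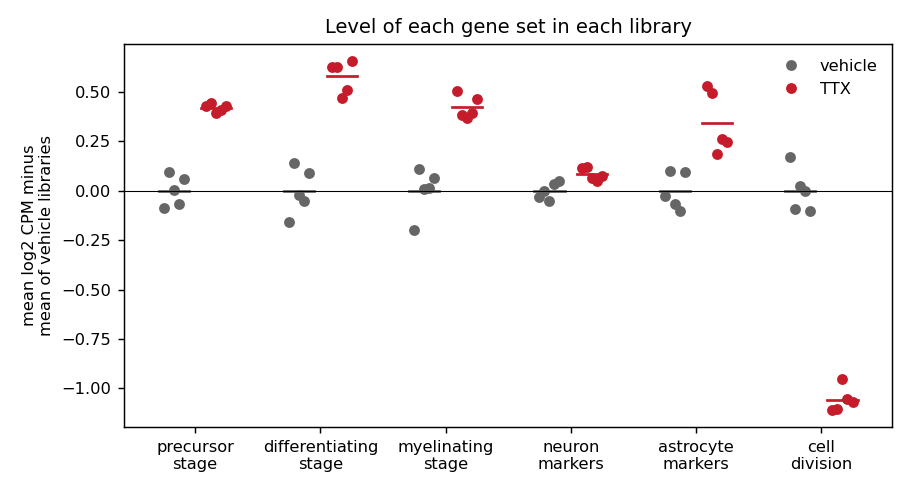
Mean log2 CPM over the genes of each set in each library, minus the mean of the vehicle libraries (points are libraries, lines are group means). All 3 stages lie between 0.37 and 0.66 with TTX, whereas the cell division genes lie between -1.11 and -0.95. Astrocyte markers lie between 0.19 and 0.53 with TTX, overlapping the stages, and neuron markers between 0.05 and 0.12.

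Other genes of the lineage, taken from general knowledge of each stage, rose more often than they fell. The shares higher were 76.9% of precursor, 54.5% of differentiating and 57.9% of myelinating genes. The shares lower were 0%, 27.3% and 31.6%, the last near that of all tested genes. Over all tested genes 35.4% were called higher and 35.0% lower. Of 13 other precursor genes 10 rose and 3 did not pass, with a median log2 fold change of 0.37. Among those that rose, Ptprz1, Bcan and Gpr37l1 had 608, 557 and 489 CPM with vehicle, far above Olig1 (173). The part of other cells, such as astrocytes, in their rise was not tested. Vcan, a proteoglycan of precursors, rose 1.84-fold (70.9 ± 5.01 to 131 ± 4.60 CPM, adjusted p = 2.34e-10). Of 11 other differentiating genes 6 rose, 3 fell and 2 did not pass, with a median of 0.13. Lims2 rose 2.05-fold and Bmp4 1.89-fold, while Tmem163 and Ust fell by 0.95 and 1.03 on the log2 scale. Of 19 other myelinating genes 11 rose, 6 fell and 2 did not pass, with a median of 0.34. Pllp, a proteolipid of myelin, rose 1.74-fold. Cntn2, an axonal and glial adhesion protein that neurons also make, rose 7.01-fold, while Hhip fell by 1.90. The genes named in this paragraph were chosen after their values were seen.

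Genes for signals that act on the lineage fell more often than they rose. Of 18 tested, 10 fell (55.6%), 4 rose (22.2%) and 4 did not pass, with a median of -0.27. Over all tested genes 35.0% were called lower and 35.4% higher. The genes named in this paragraph were chosen with their values known. Of the ligand genes of the platelet-derived growth factor family, Pdgfa had 26.8 ± 1.85 CPM with vehicle and 25.2 ± 0.792 with TTX and did not pass (log2 fold change -0.09, adjusted p = 0.107). Pdgfc, whose product also binds the Pdgfra receptor, rose 1.62-fold (12.6 ± 1.12 to 20.4 ± 0.830 CPM, adjusted p = 9.43e-08), and Pdgfb fell 1.67-fold (34.7 ± 1.24 to 20.9 ± 2.04 CPM, adjusted p = 3.58e-08). The neurotrophin gene Bdnf fell by 4.91 on the log2 scale, and the cytokine gene Lif and Bmp2 fell by 1.53 and 1.58. Nrg1, which encodes an ErbB ligand, fell by 0.87. In contrast Cntf, a cytokine that promotes oligodendrocyte survival, rose 2.76-fold (6.50 ± 0.623 to 18.0 ± 1.37 CPM) and Cxcl12 1.99-fold. Of 11 tested genes listed as possible brakes on differentiation, 5 rose (45.5%), 2 fell (18.2%) and 4 did not pass, with a median of 0.05. The role of some of them as brakes, such as Cxcr4, Tcf4 and Ptpn11, is not established. Cxcr4, the receptor for Cxcl12, rose 1.69-fold, Sox11 1.36-fold, and Egr1 fell by 1.03. Of 15 cell division genes 13 fell, 1 (Aurkb) rose and 1 did not pass, with a median of -1.28. Top2a fell from 65.6 ± 10.4 to 16.8 ± 1.12 CPM and Mki67 from 33.1 ± 4.01 to 15.6 ± 1.19. Bulk RNA does not show in which cells these genes were expressed.

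Counts for markers of the other cells of the culture are read against all tested genes, of which 35.4% were higher and 35.0% lower. For astrocytes, 8 of 12 markers rose, 2 (Slc1a2 and Sox9) were lower and 2 (Slc1a3 and Aqp4) missed the threshold, with a median of 0.47. Their summed levels were 10532.5 to 12307.6 CPM with vehicle and 15847.8 to 17791.5 with TTX. Gfap alone went from 5364 ± 511 to 9702 ± 198 CPM and made up a large part of the sum. Aqp4 ran from 272 to 1795 CPM among the TTX libraries. Of 12 neuron markers 4 rose, 3 fell and 5 did not pass (median 0.07), with 4371 to 4735 and 4585 to 4785 CPM. These neuron counts are 33.3% higher and 25% lower, at or below the shares over all genes. Of 12 microglia markers 3 rose, 1 fell and 8 did not pass (median 0.39), with 255 to 324 and 221 to 452 CPM. Schwann cells share Sox10 and Mbp with the lineage. Of 9 Schwann cell markers 4 rose, 2 fell and 3 did not pass (median 0.13), the summed level being 534 to 698 and 805 to 899 CPM. Prx, a Schwann cell gene, had 3.41 ± 0.457 and 5.48 ± 0.458 CPM. The part of the other cell types in the change of the lineage genes was not tested.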

How the data were processed

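Bulk RNA was sequenced from 5 vehicle and 5 TTX samples. Alignment and later steps used HISAT2 2.1.0, StringTie and DESeq2 on rn6, per the submitters' processing notes. The counting tool and its strand setting are not stated in these sources, and genes that overlap on either strand are therefore uncertain. The deposited table holds whole-number counts per gene, used as deposited, and the authors' FPKM values, used only for levels between genes. The log2 fold changes and p-values that the authors deposited served for comparison of calls. A second deposited table of secreted factors was not used.

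Of 14608 lines, 254 repeats were removed, which left 14354 genes. Tests were run in R 4.3.3 with edgeR 4.0.16 (TMM, filterByExpr with a minimum count of 10 and total of 15, glmQLFit, glmQLFTest and, against 1.5-fold, glmTreat; two-sided, Benjamini-Hochberg adjusted p under 0.05 over 13088 genes). The filter left 1266 genes untested. SE was the absolute log2 fold change divided by the root of F, CPM used TMM library sizes, and log2 levels a prior count of 2. Depth of 52254261 to 84921962 counts limits precision for low genes, and errors cover these samples only. All pairs of replicates differed beyond counting noise (chi-square per gene 9.94 to 23.0), and none was merged. The pipeline was tested on simulated data.

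The members and all gene lists were chosen with earlier results of these data known. Full values were given, in each stage, for the 3 members with the smallest p, the largest change and every member that fell; others were named by role. Alternatives were RLE, library total and upper quartile scaling, no filter, 1 CPM in 5 libraries, DESeq2 1.42.0, limma-voom (limma 3.58.1), the replicate number as a block and omission of each library in turn. Promoters and gene names were matched by symbol to RefSeq tables of GRCr8; 22 of 31 members had a promoter entry. Values of some genes in the lists are not reported here.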

Additional observations from a re-analysis of the deposited data

Results flagged for a closer look

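Of 62 groups of 5 values checked (31 members in each group), 2 held a library far from the other 4, both in Gal3st1, the sulfotransferase that makes sulfatide. In vehicle replicate 1 Gal3st1 had 5.07 CPM, and the other vehicle libraries had 6.34 to 6.81. In TTX replicate 5 it had 11.0 CPM, and the other TTX libraries had 7.85 to 8.75. Chance gives such a library in about 1 of 20 groups. Vehicle replicate 1 was also the lowest vehicle library, and TTX replicate 5 the highest TTX library, in 20 and 17 of the 31 members. Gal3st1 stayed called higher on leaving out each library in turn and in all other alternatives, with log2 fold changes of 0.42 to 0.55.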

How the results depend on the processing

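Of 554 member values under 18 alternatives, 525 kept direction and side of the threshold, 20 lost the call, 2 gained it and 7 changed direction, and 24 of 31 members had no such change. The number of members that rose was 22 with RLE, library total or upper quartile scaling, without a filter and by DESeq2, 21 with a filter of 1 CPM in 5 libraries (which drops low members) and 20 by limma-voom. Leaving out each library in turn gave 19 to 22 members higher, 1 to 2 lower (Cspg4 was the second) and 6 to 7 past 1.5-fold, and 0 to 1 other precursor genes lower (1 without vehicle replicate 1). Counting Tf as Trf, a choice made after seeing the data, gave 22 higher and 2 lower. Opcml, never called, changed direction to 0.012 with library totals and to 0.018 with upper quartile scaling, and ranged from -0.031 to 0.019 on leaving out libraries. Itpr2 ranged likewise from -0.027 to 0.062. The cause was not tested. Calls lost were those of Nkx6-2 (10 alternatives, adjusted p up to 0.114), Opalin (7, up to 0.137) and Mog (3, up to 0.0712). Samples of the same number did not deviate together (correlations -0.058 to 0.011, and no vehicle sample correlated best with the same-numbered TTX sample). They were treated as unpaired, although these correlations cannot show whether samples of the same number shared a preparation. A replicate block gave 20 members higher and 1 lower (4572 and 4563 genes), without Nkx6-2 (adjusted p = 0.0659) and Opalin (adjusted p = 0.0864). The scalings moved the median of all genes by less than 0.03. Members below 1 CPM are limited by depth.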
